A study of Homo sapiens with 16 samples.

Results

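Senescent fibroblasts depleted of the acetyltransferases p300 and CBP were compared directly with senescent fibroblasts depleted of p65, by chromatin accessibility. The comparison used 4 of the 16 ATAC-seq peak lists of the series: the single-end lists of Sen-sip300/CBP (replicates 1 and 2) and those of Sen-sip65 (replicates 1 and 2). Peaks on chromosomes 1 to 22 of these 4 lists were merged into 86139 regions wherever they shared at least 1 bp, and each region was recorded as present or absent in each list. A within-list rank by fold enrichment was compared as well, and both comparisons were also made on lists of equal length. All libraries came from IMR-90 ER:Ras cells, an established line of human lung fibroblasts carrying a Ras protein that tamoxifen activates through an oestrogen receptor domain. The p300/CBP-depleted cells were given sip300/CBP, the p65-depleted cells sip65 and the senescent control cells (Sen) siCtrl, each by RNAiMAX transfection. All of them received 4-hydroxytamoxifen (4-OHT), at 100 nM and over 6 days. Both knockdowns therefore carry the Ras fusion, the 4-OHT treatment and a transfected siRNA, as the Sen control does.

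The 2 single-end Sen lists stand beside the comparison as a senescent baseline, and the 10 paired-end lists serve only to classify regions. The paired-end lists were 2 of Sen-siFOXF1/2, 2 of Sen with JUN-family knockdown, 4 of Sen with siCtrl and 2 of proliferating cells (Pro) with siCtrl and no 4-OHT. The JUN libraries are titled cJUN/JUND while their treatment label names JUNB too, and the Pro libraries carry a senescent cell type label but a proliferating title. The single-end libraries were read as 75-bp single reads and the paired-end ones as 35-bp pairs. Every library is of the same line, and no label says that replicates were separate cultures, so the spread between replicates may be technical. Peak lists hold no transcript levels, so neither knockdown efficiency nor fibroblast markers could be checked.

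p300 and its close relative CBP are transcriptional coactivators that acetylate histones and other proteins, and they sit mainly at active enhancers and promoters, where transcription factors recruit them. p65, also called RELA, is the transactivating subunit of the main NF-kB dimer, which binds p300 and CBP and drives the inflammatory secretory programme of senescent cells. FOXF1 and FOXF2 are forkhead factors of mesenchymal cells, and JUN proteins are subunits of AP-1, a factor closely tied to the enhancers that open in senescence.

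The p300/CBP knockdown lists were longer than the p65 knockdown lists, but one p65 library was much shorter than the other. The p300/CBP lists held 69760 and 45808 peaks on chromosomes 1 to 22, against 43377 and 17707 in the p65 lists, and the Sen lists held 53719 and 66524. The mean was 57784 ± 16937 peaks after p300/CBP knockdown, 30542 ± 18151 after p65 knockdown and 60122 ± 9055 in Sen (SD, n = 2 each). The ratio of the knockdown means was 1.89, and a two-sided exact permutation test gave p = 0.33, the smallest that 2 libraries against 2 allow. The peaks covered 11.3 and 7.26 Mb after p300/CBP knockdown, against 7.73 and 2.87 Mb after p65 knockdown, where the groups overlapped (exact permutation p = 0.667). Depth was read from the lists as background coverage, the 1st percentile of the local background solved at each peak. It was 0.264 and 0.294 after p300/CBP knockdown, 0.314 and 0.195 after p65 knockdown, and 0.231 and 0.475 in Sen. The p65 replicate 2 library was thus both the shallowest and the shortest list. Where local background equalled background coverage, a summit had to reach 18.9 and 20.4 times background to be listed after p300/CBP knockdown. The same threshold was 19.1 and 25.7 times after p65 knockdown, and 21.7 and 14.7 times in Sen. How far depth accounts for list length was not tested.

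Far more regions were held only after p300/CBP knockdown than only after p65 knockdown in the lists as deposited. A region counted as held only after one knockdown when both lists of that knockdown and neither list of the other had a peak there. Of the 86139 regions, 14731 (17.1%) were held only after p300/CBP knockdown and 2111 (2.45%) only after p65 knockdown, while 12589 (14.6%) were held in all 4 lists. The largest single class, 22908 regions, had a peak in p300/CBP replicate 1 alone, and another 12522 had one in every list but p65 replicate 2. Fewer cells with an open region and a weaker signal in every cell cannot be told apart in such bulk libraries.

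These counts followed list length. Without p65 replicate 2 there were 15213 regions held only after p300/CBP knockdown and 11007 only after p65 knockdown, and without p65 replicate 1 there were 27326 and 2853. Leaving out p300/CBP replicate 1 gave 18861 and 3313, and leaving out p300/CBP replicate 2 gave 37761 and 2387. The 2 libraries of most similar list length, p300/CBP replicate 2 and p65 replicate 1, held 19401 and 17060 regions apart from each other, with no replicate check.

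When every list was cut to its 17707 peaks of highest −log10 q, the length of p65 replicate 2, the 2 counts became nearly equal. Of 35061 regions, 3119 (8.9%) were then held only after p300/CBP knockdown, 3090 (8.81%) only after p65 knockdown and 5732 (16.3%) in all 4 lists. Equal totals follow in large part from equal lengths, so the counts say little, and the regions themselves carry the comparison. The cut kept 25.4% and 38.7% of the p300/CBP peaks, with lowest −log10 q values of 15.6 and 12.1, against 40.8% and 100% of the p65 peaks, with lowest values of 11.5 and 4.01. An absence at equal length therefore often meant a weaker peak and not a missing one. Of the 3119 regions held only after p300/CBP knockdown, 1499 (48.1%) had a peak in the whole deposited list of p65 replicate 1 and 1620 (51.9%) in neither p65 list. Of the 3090 held only after p65 knockdown, 1514 (49.0%) had a peak in both whole p300/CBP lists, 632 (20.5%) in 1 of them and 944 (30.6%) in neither. The 2 numbers are not matched, because the p65 replicate 2 list could not be cut.

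**Figure D1:**
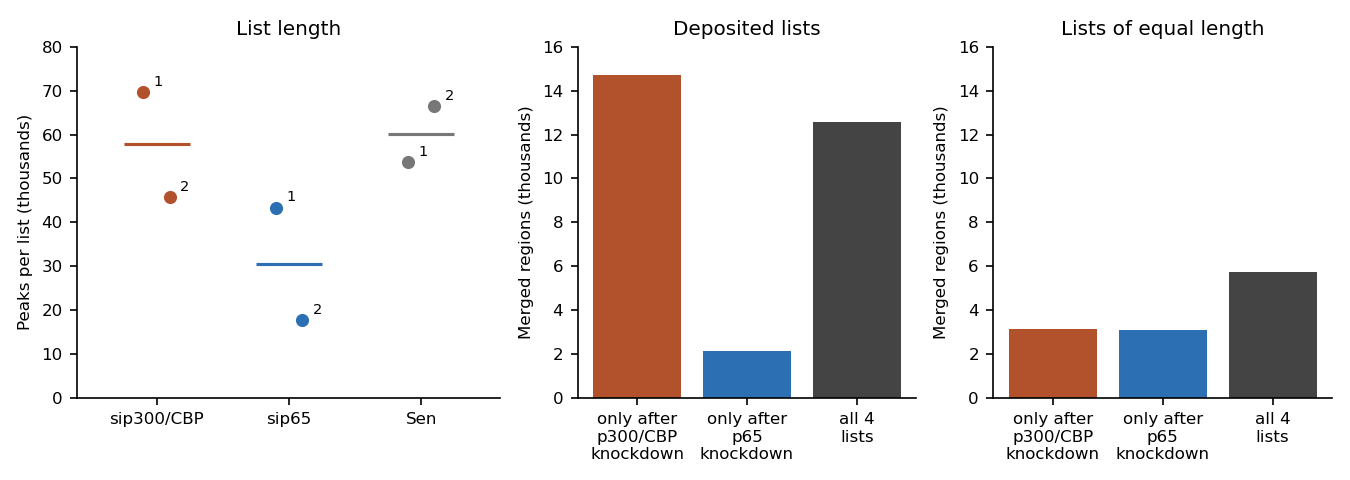
Left, peaks per list on chromosomes 1 to 22, with dots marked 1 and 2 for the replicates and lines for their means. Middle and right, number of regions held only after p300/CBP knockdown, only after p65 knockdown and in all 4 lists, in the deposited lists and in lists cut to 17707 peaks. The gap between 14731 and 2111 regions in the deposited lists becomes 3119 against 3090 at equal length.

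Replicates of p300/CBP knockdown resembled each other more than they resembled the p65 lists. The Jaccard index, the share of all covered base pairs that both lists cover, was 0.481 between the p300/CBP replicates in the deposited lists and 0.306 between the p65 replicates, with 0.182 to 0.367 for the 4 pairs across knockdowns. At equal length it was 0.448 for the p300/CBP replicates and 0.383 for the p65 replicates, and every pair across knockdowns lay below both, at 0.267 to 0.33. The Sen replicates reached 0.456 at that length. Pairs with a Sen list gave 0.372 to 0.383 for p300/CBP and 0.326 to 0.424 for p65, so the p300/CBP lists were closer to Sen than to the p65 lists in every pair. At that length p65 replicate 1 overlapped both Sen lists (0.386 and 0.424) more than it overlapped p65 replicate 2 (0.383). The p65 replicates thus did not stand apart from Sen as a group.

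The strongest regions held only after p300/CBP knockdown were of several kinds. Strength was taken as the lowest −log10 q over the lists with a peak, and summit height is given as read pileup in multiples of that library's background. A bound on the fold was the lowest summit among lists with a peak, divided by a listing threshold of the lists without one. That threshold was the lowest summit listable at background coverage, in the list where it was highest. Where local background is higher, a taller summit can stay unlisted, so the bound holds only at sites with local background near that coverage. The leading region, chr14:91287434-91287629 (hg19), had summits of 106 and 95.4 times background after p300/CBP knockdown, no peak after p65 knockdown, and 39.0 and 33.7 in Sen. Its bound between knockdowns was 3.72. Only 1 of the 4 paired-end Sen lists and 1 of the 2 siFOXF1/2 lists had a peak there.

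At chr2:97564924-97565127 the summits were 94.6 and 95.4 times background after p300/CBP knockdown, with no peak after p65 knockdown and 52.0 and 48.4 in Sen. This site had a peak in all 4 paired-end Sen lists and in neither Pro nor JUN-family knockdown list, so it belongs both to the regions opened in senescence and to those closed upon JUN-family knockdown. At chr3:154783451-154783650 the summits were 94.6 and 88.5 after p300/CBP knockdown and 82.4 and 52.6 in Sen, and all 10 paired-end lists had a peak. A region with no peak in any paired-end list, chr17:42476624-42476827, reached 98.4 and 92.0 after p300/CBP knockdown and 47.7 and 23.2 in Sen. Of the 10 strongest, 8 had a peak in both single-end Sen lists, and at those the p300/CBP summits were above both Sen summits in each library. The 10 were chosen by their strength after p300/CBP knockdown, which favours high values there, so that order is a description. The bounds of the 10 ran from 3.19 to 3.72.

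The strongest regions held only after p65 knockdown had a peak in every Sen library of both layouts. At chr19:41664977-41665333 the summits were 73.3 and 133 times background after p65 knockdown and 60.7 and 35.8 in Sen, with no peak after p300/CBP knockdown and a bound of 3.59. At chr2:235541626-235541943 they were 82.9 and 118 after p65 knockdown and 73.7 and 50.5 in Sen, with a bound of 4.06. The p65 replicate 2 value was the highest of the 4 at both sites. The 10 regions of this kind were chosen by their strength after p65 knockdown, which favours high values there, so their order against Sen is a description. Among the 10 strongest, 3 had a peak in all 4 paired-end Sen lists and in neither siFOXF1/2 list, against 0 of the 10 strongest p300/CBP regions. These were chr1:174004735-174004917, with summits of 86.1 and 113 after p65 knockdown and 52.0 and 56.8 in Sen, chr5:131161172-131161508, with 76.5 and 92.4 and with 47.7 and 42.1, and chr2:242244926-242245177, with 67.0 and 92.4 and with 43.4 and 52.6. The last of them also belongs to the regions opened in senescence.

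**Figure D2:**
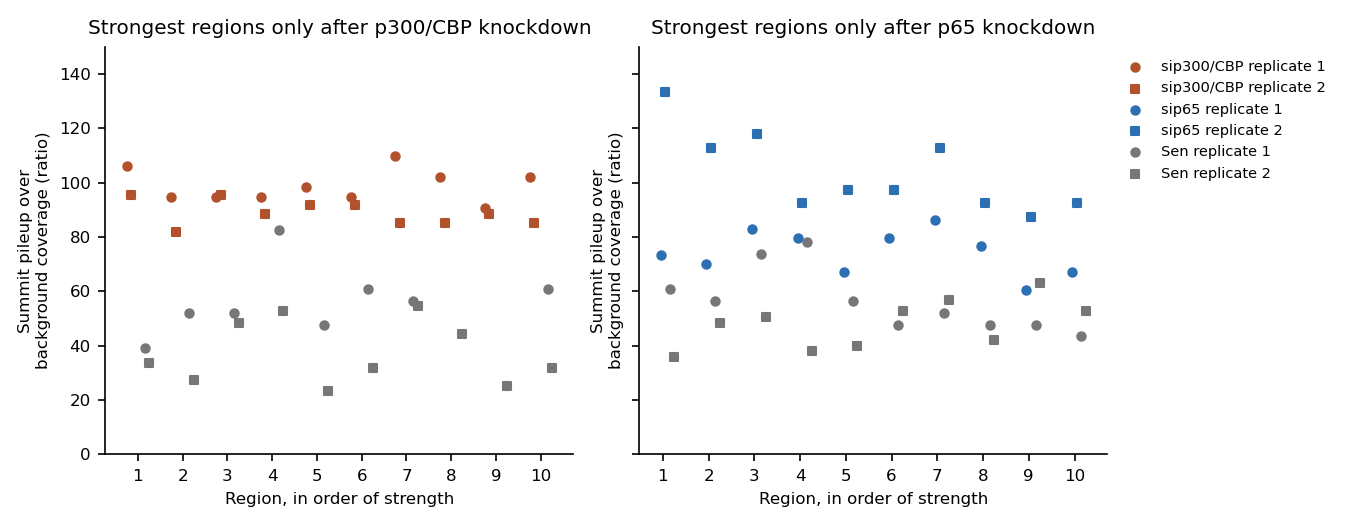
Summit pileup in multiples of library background (y axis) at the 10 strongest regions held only after p300/CBP knockdown and the 10 held only after p65 knockdown, in each single-end library that has a peak there. The p300/CBP summits lie between 81.7 and 110 and the p65 summits between 60.6 and 133.

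Over all regions, the bound exceeded 1 for 14275 of the 14731 regions held only after p300/CBP knockdown and for 2108 of the 2111 held only after p65 knockdown, with medians of 1.59 and 2.18. A bound of at least 2-fold left 2341 (2.72% of all regions) for p300/CBP knockdown and 1365 (1.58%) for p65 knockdown. At 3-fold the order turned round, with 112 and 199 regions. The depth of p65 replicate 2 enters these bounds on both sides, since its listing threshold was the highest of the 4.

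In the equal-length lists, the strongest region of each kind had a peak also in at least 1 whole list of the other knockdown. At chr20:2217770-2218141, held only after p300/CBP knockdown, the summits were 114 and 98.8 times background after p300/CBP knockdown, 35.1 in the whole list of p65 replicate 1 and below listing in replicate 2, and 73.7 and 33.7 in Sen. At chr1:112947026-112947176, held only after p65 knockdown, they were 68.1 and 44.3 after p300/CBP knockdown, 76.5 and 113 after p65 knockdown, and 56.4 and 52.6 in Sen. The p65 summits were the higher ones at this site in both libraries, and all 4 whole lists had a peak. Both sites were chosen by their strength after the knockdown that held them, so the order of summits there is a description. Among the 5 strongest regions held in all 4 lists, chr1:156186216-156186636 had the highest summits, which were 394 and 337 after p300/CBP knockdown, 344 and 405 after p65 knockdown, and 460 and 227 in Sen. Of those 5, 4 had a peak in all 10 paired-end lists, and the fifth, chr6:119558538-119558722, overlapped a peak in 1 of them.

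Most regions held only after p65 knockdown were ones that senescent control cells already had, and this was less so for p300/CBP knockdown. In the deposited lists, 5876 of the 14731 regions held only after p300/CBP knockdown (39.9%) had a peak in both single-end Sen lists, 4003 (27.2%) in 1 and 4852 (32.9%) in neither. Of the 2111 held only after p65 knockdown, 1326 (62.8%) had a peak in both Sen lists, 570 (27.0%) in 1 and 215 (10.2%) in neither. Among every region of the 4 lists, 31.5% had none in Sen, so the p300/CBP share is near that background and the p65 share is below it. For regions in all 4 lists the share with both Sen peaks was 97.7%.

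At equal length for the knockdown lists, with the Sen lists whole, 2412 of 3119 regions held only after p300/CBP knockdown (77.3%) and 2736 of 3090 held only after p65 knockdown (88.5%) had a peak in both Sen lists. Those without any Sen peak numbered 270 (8.66%) and 62 (2.01%). Of all equal-length regions, 79.0% had both Sen peaks and 7.99% had none, so the p300/CBP shares were near the background. With the Sen lists cut to 17707 peaks as well, 1515 (48.6%) and 1237 (40.0%) had none. The order of the knockdowns was the same in all 3 versions, and regions are not replicates, so no test was made over them.

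**Figure D3:**
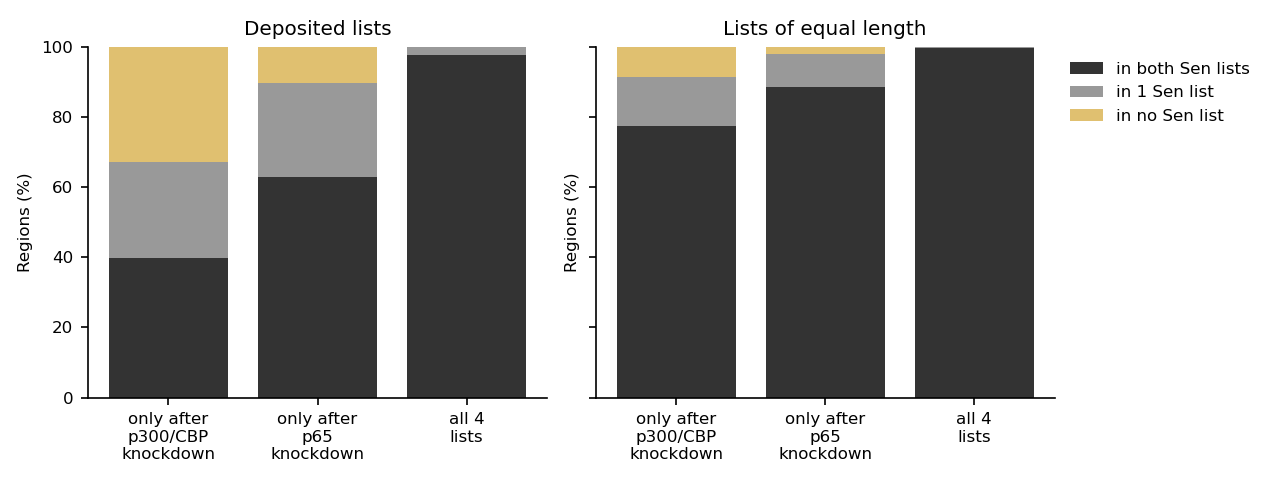
Share of regions (y axis, percent) held only after p300/CBP knockdown, only after p65 knockdown and in all 4 lists that had a peak in neither, 1 or both single-end Sen lists, for the deposited and the equal-length lists. Regions with no Sen peak make up 32.9% of the p300/CBP regions and 10.2% of the p65 regions in the deposited lists.

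The paired-end lists, which share no library with the comparison, were used to ask what kinds of region differed. Over chromosomes 1 to 22 they gave 149504 regions. Of these, 48397 had a peak in every Pro and Sen list (shared regions), 19521 in every Sen and no Pro list (opened in senescence), 6048 in every Sen and neither siFOXF1/2 list (closed upon FOXF1/2 knockdown) and 23622 in every Sen and neither JUN-family list (closed upon JUN-family knockdown). The reverse classes held 8624 regions opened upon FOXF1/2 knockdown and 3002 opened upon JUN-family knockdown. A region can belong to more than 1 class.

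Shared regions took a smaller share of the peaks in both p300/CBP lists than in both p65 lists. At equal length, 74.3% of the peaks lay there in each p300/CBP list, against 87.0% and 85.7% in the p65 lists and 78.8% and 81.7% in Sen. The mean difference between knockdowns was −12.0 percentage points, the groups did not overlap, and the exact permutation test gave p = 0.33, the smallest possible. In the whole deposited lists the shares were 57.1% and 64.8% after p300/CBP knockdown, 75.6% and 85.7% after p65 knockdown, and 64.7% and 63.9% in Sen, so the knockdowns still did not overlap while the p300/CBP lists no longer lay below both Sen lists. Of the regions held only after p300/CBP knockdown in the deposited lists, 36.8% were shared, against 65.4% of those held only after p65 knockdown and 55.2% of all regions. Without p65 replicate 1 these shares came to 56.2% and 60.3%.

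Peaks at regions closed upon FOXF1/2 knockdown were fewer in both p300/CBP lists than in both p65 lists. At equal length, 83 and 87 peaks (0.469% and 0.491%) lay at such regions after p300/CBP knockdown, against 240 and 368 (1.36% and 2.08%) after p65 knockdown and 158 and 161 (0.892% and 0.909%) in Sen. The 95% Wilson intervals were 0.378% to 0.581% and 0.399% to 0.606% for p300/CBP, against 1.2% to 1.54% and 1.88% to 2.3% for p65, and cover counting error only. The mean p65 share was 3.58 times the p300/CBP share (difference −1.24 percentage points, exact permutation p = 0.33, the smallest possible). Both p300/CBP lists lay below both Sen lists and both p65 lists above them.

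The difference between knockdowns had a similar size within the regions of senescent control cells. Among peaks at regions of all 4 paired-end Sen lists only, the shares were 0.551% and 0.571% after p300/CBP knockdown, 1.41% and 2.15% after p65 knockdown, and 0.958% and 0.954% in Sen. As shares of all peaks in the whole deposited lists, the class took 0.744% and 0.685% after p300/CBP knockdown, 2.99% and 2.08% after p65 knockdown, and 1.92% and 2.71% in Sen. The p300/CBP lists stayed below all others, while p65 replicate 1 lay above both Sen lists and p65 replicate 2 between them. Weaker peaks entered these whole lists in every library but p65 replicate 2, which was not cut.

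**Figure D4:**
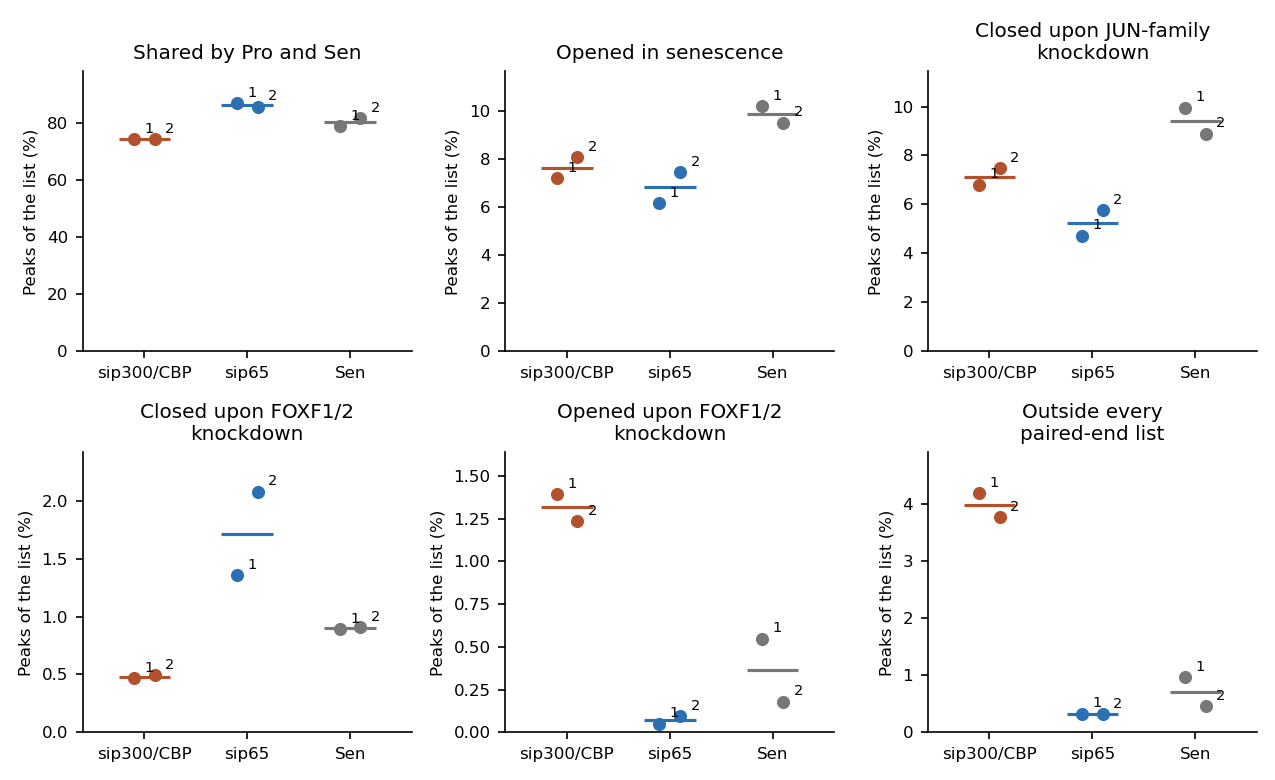
Share of the 17707 peaks of each equal-length list (y axis, percent, own scale per panel) in 6 classes set by the paired-end lists, for p300/CBP knockdown, p65 knockdown and Sen. Dots marked 1 and 2 are the replicates and lines their means (n = 2). The knockdowns lie on opposite sides of Sen for shared regions, regions closed upon FOXF1/2 knockdown, regions opened upon FOXF1/2 knockdown and peaks outside every paired-end list.

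The same class stood out among the regions held after only one knockdown. Of the regions held only after p300/CBP knockdown in the deposited lists, 152 of 14731 (1.03%) were closed upon FOXF1/2 knockdown, against 219 of 2111 (10.4%) held only after p65 knockdown and 2.08% of all regions. The p65 share was highest, 58 of 215 (27.0%), among regions without a peak in either single-end Sen list. It held at every strength: in 4 bins of rising −log10 q the shares were 1.23%, 0.806%, 1.09% and 1.01% for p300/CBP, against 10.3%, 11.5%, 10.7% and 7.45% for p65. At equal length the shares were 22 of 3119 (0.71%) and 85 of 3090 (2.75%), with 1.75% of all regions. Leaving out any 1 library kept a lower share for p300/CBP, by 6.21 to 10.1 percentage points. Among peaks with a −log10 q of at least 20, where 9 regions were held only after p65 knockdown, 4 of 1188 and 0 of 9 were in the class.

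**Figure D5:**
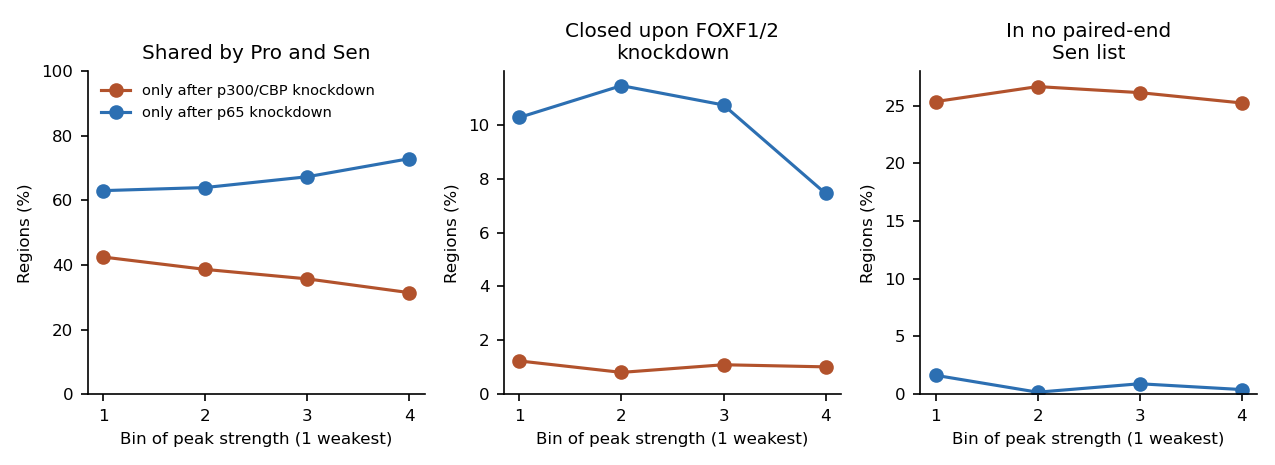
Share (y axis, percent) of regions held only after p300/CBP or only after p65 knockdown in the deposited lists that are shared by Pro and Sen, closed upon FOXF1/2 knockdown, or in no paired-end Sen list, in 4 bins of rising peak strength (x axis, lowest −log10 q over the lists with a peak, 4.02 to 28.4). The p65 share closed upon FOXF1/2 knockdown stays between 7.45% and 11.5% and the p300/CBP share between 0.806% and 1.23%.

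Peaks outside every paired-end list took a larger share in both p300/CBP lists than in both p65 lists and both Sen lists. At equal length, 742 and 668 peaks (4.19% and 3.77%) after p300/CBP knockdown overlapped no paired-end region of any group, against 58 and 56 (0.328% and 0.316%) after p65 knockdown and 172 and 81 (0.971% and 0.457%) in Sen. The share inside paired-end regions differed by −3.66 percentage points between the knockdowns (exact permutation p = 0.33, the smallest possible). In the whole lists the shares outside were 12.0% and 7.33% after p300/CBP knockdown, 1.14% and 0.316% after p65 knockdown, and 3.86% and 3.19% in Sen. Peaks outside were narrower than those inside in every library, with median widths of 105 and 104 bp outside against 148 and 144 bp inside after p300/CBP knockdown, 105 and 113 against 160 and 145 bp after p65 knockdown, and 103 and 108 against 152 and 162 bp in Sen.

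Of the regions held only after one knockdown, 2354 of 14731 (16.0%) for p300/CBP and 13 of 2111 (0.616%) for p65 lay outside every paired-end list, where 9636 of all 86139 regions lay. Of those 2354, 1657 had no peak in either single-end Sen list, 450 in 1 and 247 in both. Outside regions in other patterns over the 4 lists numbered 7262, of which 6319 had no Sen peak, 704 in 1 and 239 in both. Those other patterns include regions with a peak in only 1 p300/CBP list, so they do not form a contrast to p300/CBP knockdown. Peaks outside numbered 8347 and 3360 in the whole p300/CBP lists, against 495 and 56 in the whole p65 lists. Whether a lack of Sen peaks is particular to the p300/CBP regions was not tested. The share held only after p300/CBP knockdown and in no paired-end Sen list was 25.8% (3805 regions), against 0.90% (19 regions) for p65 and 16.5% of all regions. It was 25.3%, 26.6%, 26.1% and 25.2% across the 4 strength bins. The p65 share stayed between 0.164% and 1.63% in those bins. The p65 values were higher without the short list of replicate 2. Without that list, 3813 regions (25.1%) for p300/CBP and 514 (4.67%) for p65 were in no paired-end Sen list, and 2357 (15.5%) and 342 (3.11%) lay outside every paired-end list. In the pair of similar list length, 3269 (16.8%) and 404 (2.37%) lay outside.

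Regions opened upon FOXF1/2 knockdown took a larger share of peaks in both p300/CBP lists than in both p65 lists. At equal length, 247 and 219 peaks (1.39% and 1.24%) lay in that class after p300/CBP knockdown, against 9 and 17 (0.0508% and 0.0960%) after p65 knockdown and 97 and 32 (0.548% and 0.181%) in Sen. The mean p300/CBP share was 17.9 times the p65 share (difference 1.24 percentage points, exact permutation p = 0.33, the smallest possible). The class was not singled out among regions missing from Sen, however. Of the 549 and 491 peaks after p300/CBP knockdown at paired-end regions of no Sen list, 45.0% and 44.6% were of this class, against 29.0% and 47.2% of only 31 and 36 peaks after p65 knockdown, and 52.4% and 49.2% of 185 and 65 peaks in Sen.

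Regions opened upon JUN-family knockdown also took a larger share in both p300/CBP lists than in both p65 lists. At equal length they took 0.390% and 0.237% of peaks after p300/CBP knockdown, 0.0565% and 0.0678% after p65 knockdown, and 0.0508% and 0.0282% in Sen. The p65 lists thus lay above Sen there, but by few peaks, 10 and 12 against 9 and 5. In the whole lists p65 replicate 1 (0.233%) lay just above both Sen lists (0.225% and 0.231%) and p65 replicate 2 (0.0678%) below them. Among peaks at paired-end regions of no Sen list, the order turned round. There the class took 12.6% and 8.55% after p300/CBP knockdown against 32.3% and 33.3% after p65 knockdown, the latter of only 31 and 36 peaks. In Sen it took 4.86% and 7.69%. Regions with a peak in both Pro and no Sen paired-end list took 0.175% and 0.0847% (31 and 15 peaks) after p300/CBP knockdown. They took 0.0169% (3 peaks) in each p65 list, and 0.0226% and 0% (4 and 0 peaks) in Sen. As shares of all equal-length peaks, both classes were larger in both p300/CBP lists than in both p65 lists. The exact permutation test gave p = 0.33 for each, the smallest possible.

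Regions that open in senescence separated the knockdowns less clearly. They took 7.21% and 8.06% of equal-length peaks after p300/CBP knockdown, 6.17% and 7.47% after p65 knockdown, and 10.2% and 9.52% in Sen, so both knockdowns lay below both Sen lists and overlapped each other (difference 0.816 percentage points, exact permutation p = 0.667). Regions closed upon JUN-family knockdown took 6.81% and 7.47% after p300/CBP knockdown, 4.73% and 5.76% after p65 knockdown, and 9.95% and 8.89% in Sen (difference 1.9 percentage points, p = 0.33 by the exact permutation test, the smallest possible). In the whole lists this class no longer separated the knockdowns, with 10.1% and 9.97% after p300/CBP knockdown and 10.2% and 5.76% after p65 knockdown.

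Among the regions held after only one knockdown, neither class kept its direction across settings. In the deposited lists, 13.6% of the p300/CBP regions and 20.1% of the p65 regions opened in senescence, against 10.8% of all regions, whereas at equal length the shares were 14.1% (440 regions) and 9.03% (279 regions), against 9.77% of all. For regions closed upon JUN-family knockdown the shares were 15.9% and 14.8% in the deposited lists, with 12.0% of all regions. At equal length they were 13.8% (430 regions) and 5.50% (170 regions), with 8.89% of all. Without p65 replicate 2, however, the deposited lists gave 15.8% for p300/CBP and 20.7% for p65.

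Among regions held in all 4 equal-length lists, no difference in rank passed the threshold. Each of the 5732 regions was ranked within its list by fold enrichment, the ranks were put on a normal-score scale, and limma was fitted over all of them. With Benjamini-Hochberg adjustment limma called 0 regions (0%) higher and 0 (0%) lower after p300/CBP knockdown at an adjusted p of 0.05, with a lowest adjusted p of 0.355. At an unadjusted p under 0.05 by limma there were 191 higher and 455 lower, together 646 of the 5732 regions (11.3%). With the replicate number as a block limma called 1 region higher, and likewise 1 when ranks were taken among the jointly held regions alone. Both p300/CBP libraries ranked above both p65 libraries at 837 regions (14.6%) and below both at 1559 (27.2%), and the median difference was −0.22 on the normal-score scale. That median was 0.25 with ranks taken in the whole lists. With ranks among jointly held regions it was −0.024, and limma gave 320 regions higher and 259 lower at an unadjusted p under 0.05. Ranked by −log10 q in place of fold, it was −0.057, with 235 higher and 249 lower. The lean towards lower ranks after p300/CBP knockdown thus depended on how ranks were taken.

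The largest differences in rank between groups that did not overlap did not pass the adjusted threshold. At chr3:63710732-63710961 the region ranked at the 99.8 and 99.1 percentiles of its list after p300/CBP knockdown and at the 47.5 and 4.05 percentiles after p65 knockdown, a difference of 3.52 ± 0.75 (SE) with an adjusted p of 0.355 by limma. At chr6:24721372-24721681 the percentiles were 10.1 and 2.79 after p300/CBP knockdown and 73.4 and 98.6 after p65 knockdown, a difference of −3.01 ± 0.75 (SE) with the same adjusted p by limma. Scores of the p65 replicates correlated at 0.357 over these regions, against 0.580 for the p300/CBP replicates and 0.237 to 0.479 across knockdowns, over 5732 regions that share their libraries. By class, the median difference was 0.29 for the 110 regions opened in senescence, 0.47 for the 45 closed upon JUN-family knockdown, 0.35 for the 5 closed upon FOXF1/2 knockdown and −0.25 for the 5508 shared regions, against −0.22 for all.

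Regions of both kinds were spread over the genome and were narrower than those in all 4 lists, though not narrower than regions as a whole. The median width in the deposited lists was 159 bp for regions held only after p300/CBP knockdown and 199 bp for those held only after p65 knockdown. It was 273 bp for those in all 4 lists and 155 bp for every region. At equal length the same medians were 200, 224, 304 and 193 bp. Of the p300/CBP regions, 14.8% lay within 10 kb of another of their kind, against 3.6% of the fewer p65 regions, and at equal length, with similar numbers, 2.95% and 4.30% did. At equal length, regions held only after p300/CBP knockdown were found in 1595 of the 2411 windows of 1 Mb with any region, and those held only after p65 knockdown in 1498. The window with most p300/CBP regions, chr11:72000001-73000000, had 9, against 2 of the p65 kind. The windows with most p65 regions had 8 each. Of these, chr1:8000001-9000000 had 3 of the p300/CBP kind, and chr1:212000001-213000000 and chr6:75000001-76000000 had 0. By chromosome, regions held only after p300/CBP knockdown made up between 43.0% (chromosome 6) and 58.1% (chromosome 16) of both kinds at equal length.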

How the data were processed

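Libraries were ATAC-seq of IMR-90 ER:Ras cells on an Illumina NextSeq, per the labels' protocols. The submitters' processing notes name build hg19 and, without a role, MACS2 2.1.1, deepTools 3.1.1, SAMtools 1.9 and Bowtie2 2.3.4.1. How reads were shifted and peaks called is not given in the sources used here, beyond an rmdup tag in the single-end peak names. The 16 deposited lists have the 10 narrowPeak columns, 1 list per library and not pooled. The authors' values per peak are a fold ratio at the summit, −log10 values of p and q (q-values listed from just above 4 on that scale), a score and a summit position. The score was not used. Folds ranked peaks within a list, and −log10 q filtered them.

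Peaks on chromosomes 1 to 22 were kept, which left out 192 to 1421 peaks per single-end list. Summit pileup and local background were solved from the fold ratio and the −log10 p-value by the MACS2 equations. The match had to lie within 0.002 on the −log10 p scale, a tolerance widened in proportion above a −log10 p of 10. Under this rule a whole pileup was found for 100% of the peaks in these lists. The background coverage of a library was the 1st percentile of local background. The bounds leave out the caller's minimum peak length and any local background above the library's background coverage.

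Ranks were fitted with limma 3.58.1 (R 4.3.3), on whose simulated ranks 78% of shifts of 4 replicate SD, 100% of shifts of 8 and 0.127% of 5532 unchanged regions were called among 5732. Other values used Python 3.11.15, pandas 2.3.3 and scipy 1.17.1. Named regions are the 10 strongest of each kind in the deposited lists, the 5 strongest in the equal-length lists and in all 4, the 5 with the largest rank difference per direction, and the 3 fullest windows of each kind, of which the text gives the leading ones and some below them. The 95% Wilson intervals were computed for shares of equal-length peaks and are given here only for the class closed upon FOXF1/2 knockdown.

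The members and classes were chosen with earlier results of these data known. The classes opened upon FOXF1/2 or JUN-family knockdown, those closed in senescence and the peaks outside paired-end lists were added after values were seen. Alternatives tried were other −log10 q limits, overlap rules, list lengths, rank scales, Sen subsets, a replicate block and leaving out each library. Motifs, gene lists and cell type markers were not analysed here, as the gene table at hand is of another build than the lists.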

Additional observations from a re-analysis of the deposited data

Results flagged for a closer look

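The 2 knockdowns lay on opposite sides of both single-end Sen lists for 4 shares of equal-length peaks, given as p300/CBP minus p65 in percentage points. The difference was −12.0 at regions shared by Pro and Sen, −1.24 at regions closed upon FOXF1/2 knockdown, 1.24 at regions opened upon FOXF1/2 knockdown and −3.66 at any paired-end region. In the whole lists only the last of these kept opposite sides together with regions opened upon FOXF1/2 knockdown. There p300/CBP replicate 2 (64.8%) lay above both Sen lists (64.7% and 63.9%) at shared regions. At regions closed upon FOXF1/2 knockdown p65 replicate 2 (2.08%) lay between the Sen lists (1.92% and 2.71%). Both knockdowns are set against the same 2 Sen lists, so the 2 sides are not independent. The difference of their effects relative to Sen was not tested, since groups of 2 cannot reach a p under 0.33, and all 4 shares come from the same peaks.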

How the results depend on the processing

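The presence counts followed list length and strength. With a −log10 q of at least 20, 1188 regions were held only after p300/CBP knockdown and 9 only after p65 knockdown. The counts were 3119 for p300/CBP at equal length, 2341 and 1365 with a bound of 2-fold, and 17060 for p65 in the pair of similar lists. Leaving out 1 library gave 15213 to 37761 and 2387 to 11007. At equal length the counts were 1777 and 1591 with 10000 peaks per list, and 4161 to 7039 and 4208 to 7385 without 1 library. For ranks, the median difference was 0.25 in whole lists and −0.024 among jointly held regions, against −0.22. The replicate numbers pair the samples only by number, since deviations of same-numbered libraries correlated at 0.0811 over 2 pairs, and limma with a replicate block called 1 region higher. Ranks among jointly held regions also gave 1. The difference in background coverage, p300/CBP minus p65, was −0.0347 without p65 replicate 2, and leaving out 1 library gave −0.0347 to 0.0840.

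For regions held after only one knockdown, the p300/CBP minus p65 share opened in senescence was 5.81 percentage points at a −log10 q of at least 20 and 5.08 at equal length. The share closed upon JUN-family knockdown was −1.21 in the pair of similar lists, and −5.42 to 3.70 without 1 library, where only leaving out p300/CBP replicate 1 kept its sign. The share closed upon FOXF1/2 knockdown turned to 0.337 at a −log10 q of at least 20. The causes were not tested.

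In all, 145 of 209 values under alternatives stayed within the main value's spread or 1.5 times its count, and 9 turned round. Differences between knockdowns in the share of all peaks of a list per class kept their sign under every alternative run. The listing thresholds of 14.7 to 25.7 times background leave weaker sites unlisted in the single-end libraries, groups of 2 cannot pass a threshold of 0.05 in a permutation test, and p65 replicate 2 sets the length of the equal lists.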
